A study of Homo sapiens with 30 samples.

Results

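The late response to oxygen loss was compared between HCT116 colon carcinoma cells and RCC4 renal carcinoma cells carrying a reintroduced wild-type VHL gene (RCC4vhl+). The comparison used 8 of the 30 arrays of the series, chosen by cell line and time from the sample labels and paired within a line as hypoxia against 0 h. The HCT116 side held 1 pair of p53 null cells (HCT116p53-) and 1 pair of p53 wild-type cells (HCT116p53+), each 24 h against 0 h. The RCC4vhl+ side held replicates 1 and 2, each 18 h against 0 h. All cells were grown as monolayers, and those in hypoxia were kept in an anoxic incubator. The labels name no clone and no way in which VHL or p53 had been changed. Line and time cannot be told apart in this comparison, since HCT116 was sampled at 24 h and RCC4vhl+ at 18 h. The 2 HCT116 pairs differ in p53 genotype, so a p53 difference is part of the spread between them. The p-values below measure only the spread between the few pairs that enter each fit. Except where the HCT116 and RCC4vhl+ pairs are fitted alone, the error also draws on pairs of RCC4 cells without VHL. In the largest fit it draws on pairs of H1299 lung carcinoma cells too. For HCT116 nothing in the labels says that more than 1 culture of a genotype was sampled.

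In normal oxygen, prolyl hydroxylases mark the alpha subunits of the hypoxia-inducible factors (HIF) and the VHL protein then targets them for destruction. When oxygen is lost, HIF accumulates and switches on genes of glycolysis, vessel growth, mitophagy and collagen modification. Renal carcinoma cells that lack VHL keep HIF active in normal oxygen, and putting VHL back restores its control by oxygen. Severe oxygen loss also triggers HIF-independent programmes, among them the unfolded protein response of the endoplasmic reticulum (ER) and the stress factor ATF4.

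The values are linear array intensities, with some entries listed as null. Over the 8 arrays the median listed intensity was between 145 and 222, and 28.3% to 36.2% of the entries were null. Changes are differences of log2(intensity + 16) after each array was centred on its median, with null taken as 0. The added 16 shrinks changes of dim genes. Where only 1 array of a pair is null, taking it as 0 can overstate a change, since the meaning of null is not given. Of 12690 genes, the 7614 brightest over all arrays were tested. The markers were a weak guide to the identity of the lines. Among 5 renal markers measured, 2 to 3 were above the array median on the RCC4vhl+ arrays, against 0 to 1 on the HCT116 arrays. Among 11 colon markers, 3 were above the median on every HCT116 array and 1 to 3 on the RCC4vhl+ arrays, and VIL1, GPA33 and KRT20 were null on all 4 HCT116 arrays. By the same measure 7 of 9 endothelial markers were above the median on every array of both lines. On every HCT116 array 4 of 9 leukocyte and 4 of 8 fibroblast markers were above it, against 3 to 4 and 2 to 4 on the RCC4vhl+ arrays. A place above the median thus does not mark a cell type here. With 6 pairs, none of the tested renal (2), colon (4), leukocyte (4), endothelial (7) or fibroblast (4) markers passed in either line. In such bulk samples, fewer cells of a kind and less RNA per cell cannot be told apart.

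The H1299 pairs ran opposite to each other, and whether their labels are at fault was not tested. The fit took its error from 8 late pairs, those of HCT116, RCC4vhl+, RCC4 without VHL (RCC4vhl-, 18 h) and H1299 lung carcinoma cells (24 h; p53 null, and with p53 reintroduced). Over 7614 genes the change in the pair labelled H1299p53+ correlated at r = -0.61 with that in H1299p53-, and the mitophagy gene BNIP3 changed by -3.37 in the pair labelled H1299p53+ and by 3.79 in H1299p53-. Each result is therefore given with all 8 pairs and with the 6 pairs that leave H1299 out, a choice made after seeing the data. Counts from the 4 HCT116 and RCC4vhl+ pairs alone are given too, because the RCC4vhl- pairs that enter the 6-pair error differed less from each other than the HCT116 pairs did. At the 90th percentile of genes, the gap between pairs was 0.29 in RCC4vhl- and 0.47 in HCT116.

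More genes passed the test in HCT116 than in RCC4vhl+ in the main fits, but the order was not stable. With no filter on dim genes the 8-pair order was the reverse. With HCT116 at 12 h its 8-pair count was far lower (both given below). With 8 pairs, 239 genes passed in HCT116 at an adjusted p under 0.05 (3.14% of genes tested), 112 up (1.47%) and 127 down (1.67%). In RCC4vhl+ 39 passed (0.512%), 35 up (0.46%) and 4 down (0.0525%). The difference between the lines passed for 20 genes (0.263%), with the HCT116 change above the RCC4vhl+ change in 5 (0.0657%) and below it in 15 (0.197%). With 6 pairs 965 passed in HCT116 (12.7%), 431 up (5.66%) and 534 down (7.01%), and 313 in RCC4vhl+ (4.11%), 205 up (2.69%) and 108 down (1.42%). The difference then passed for 279 (3.66%), 112 above (1.47%) and 167 below (2.19%). With the 4 pairs alone they were 327 (4.29%), 50 (0.657%) and 17 (0.223%). Every gene called with 8 pairs was also called with 6. Quantile normalization changed the balance of directions in the 6-pair fit, to 184 up and 156 down in RCC4vhl+, and to 119 above and 97 below for the difference. The RCC4vhl+ count depended on both replicates. In the 8-pair fit 1 gene passed without replicate 1 and 1 without replicate 2, and in the 6-pair fit 121 and 209 passed. In the 8-pair fit the HCT116 count was 89 without the HCT116p53- pair, 177 without the HCT116p53+ pair and 96 without either RCC4vhl+ replicate, and the count for the difference was 18 without HCT116p53-, 59 without HCT116p53+, 3 without RCC4vhl+ replicate 1 and 1 without replicate 2. The median gap between a line's pairs was 0.153 in HCT116 and 0.113 in RCC4vhl+, and the median change of all genes tested was 0.034 in HCT116 and 0.046 in RCC4vhl+. In what follows, "rose" and "fell" refer to genes past the 6-pair test, most of which did not pass with 8 pairs, and standard errors (SE) are those of the 6-pair fit with n = 2 pairs per line.

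**Figure D1:**
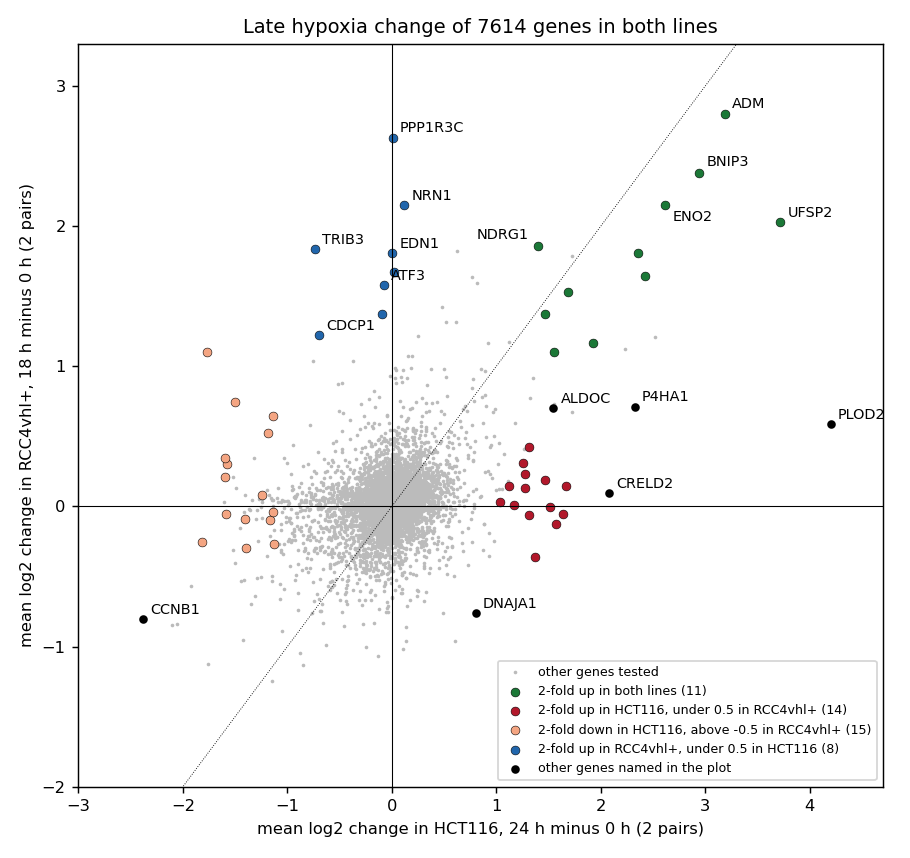
Each point is 1 of 7614 genes, with its mean log2 change in HCT116 (24 h minus 0 h, 2 pairs) on the horizontal axis and in RCC4vhl+ (18 h minus 0 h, 2 pairs) on the vertical axis; the dotted line marks equal change. The 11 genes 2-fold higher in all 4 pairs lie at the upper right, while PLOD2 and P4HA1 lie far to the right and PPP1R3C, NRN1 and EDN1 lie near 0 on the HCT116 axis.

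The genes with large increases in both lines were mostly classical HIF targets. By size alone, 34 genes were at least 2-fold higher in both HCT116 pairs (0.447% of genes tested) and 29 in both RCC4vhl+ pairs (0.381%). The sets shared 11 genes (0.144%), which are 32.4% of the HCT116 set and 37.9% of the RCC4vhl+ set. These were ADM, BNIP3, BNIP3L, ENO2, HILPDA, HK1, NDRG1, PDK1, PFKFB4, TMEM158 and UFSP2. HK1 was nearest to the limit, with a smallest change of 1.01, and MSANTD3 and TMEM45A fell just outside at 0.90 and 0.88. No gene was 2-fold lower in all 4 pairs. In H1299p53-, 8 of the 11 were 2-fold higher, against 46 of all genes tested (0.604%). None of the 11 was 2-fold higher in both RCC4vhl- pairs, where 1 gene of all those tested was (0.0131%).

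ADM encodes the vasodilator peptide adrenomedullin and was the shared gene with the largest smaller change. Its intensity was 593 at 24 h and 53 at 0 h in HCT116p53-, and 726 and 64 in HCT116p53+. In RCC4vhl+ it was 516 at 18 h and 53 at 0 h in replicate 1, and 765 and 116 in replicate 2. All 4 hypoxic values lay above all 4 values at 0 h. The change was 3.19 ± 0.12 (SE) in HCT116 and 2.80 ± 0.12 in RCC4vhl+, with an adjusted p of 0.00545 in HCT116 and 0.0109 in RCC4vhl+ in the 8-pair fit. The difference of 0.38 did not pass (adjusted p = 0.813 with 8 pairs), and its 95% interval in the 6-pair fit, not adjusted over genes, was 0.02 to 0.75.

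BNIP3 and its relative BNIP3L encode outer mitochondrial membrane proteins that recruit the autophagy machinery. BNIP3 was listed at 96 (24 h) in HCT116p53- and 117 in HCT116p53+, and was null on both HCT116 arrays at 0 h. In RCC4vhl+ it was 310 at 18 h and 34 at 0 h in replicate 1, and 511 and 120 in replicate 2. The hypoxic arrays of both lines were thus all above their own 0 h arrays. The change was 2.94 ± 0.15 in HCT116 and 2.38 ± 0.15 in RCC4vhl+, past the 6-pair test in both (adjusted p = 7.87e-06 in HCT116 and 5.38e-05 in RCC4vhl+) and past the 8-pair test in neither (0.254 and 0.556). Because of the null entries the HCT116 value rests on the pseudocount, and was 4.79 with 4 added in place of 16 and 1.42 with 64. BNIP3L rose by 1.93 ± 0.09 in HCT116 and by 1.16 ± 0.09 in RCC4vhl+, without passing with 8 pairs in either (adjusted p = 0.0664 in HCT116 and 0.367 in RCC4vhl+). Its difference of 0.76 passed with 6 pairs (adjusted p = 0.0152) and not with 8 (0.750).

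ENO2, the enolase isoform best known from neurons, read 812 at 24 h and 125 at 0 h in HCT116p53-, 868 and 124 in HCT116p53+, 909 at 18 h and 205 at 0 h in RCC4vhl+ replicate 1, and 1200 and 259 in replicate 2. It rose by 2.62 ± 0.09 in HCT116 and 2.15 ± 0.09 in RCC4vhl+, and passed the 8-pair test in HCT116 (adjusted p = 0.0410) and not in RCC4vhl+ (0.138). PDK1, the kinase that keeps pyruvate out of the mitochondria, rose by 1.68 and 1.53 in HCT116 and RCC4vhl+, and PFKFB4, which makes an activator of glycolysis, by 1.47 and 1.37. The 95% interval of the difference was -0.27 to 0.58 for PDK1 and -0.20 to 0.40 for PFKFB4. Those intervals allow a modest difference either way. HK1, the first kinase of glycolysis, rose by 1.56 in HCT116 and 1.10 in RCC4vhl+. With 8 pairs none of PDK1, PFKFB4 and HK1 passed in either line (adjusted p of 0.145, 0.105 and 0.0965 in HCT116 and 0.345, 0.257 and 0.370 in RCC4vhl+).

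NDRG1, a stress-responsive differentiation gene, had one of the brightest hypoxic signals of the 11. It read 1418 at 24 h and 643 at 0 h in HCT116p53-, 1378 and 425 in HCT116p53+, 1325 at 18 h and 290 at 0 h in RCC4vhl+ replicate 1, and 1658 and 581 in replicate 2. It was the only one of the 11 whose mean change was smaller in HCT116 (1.40 ± 0.16) than in RCC4vhl+ (1.86 ± 0.16), and the difference did not pass either fit. HILPDA, a lipid droplet protein that holds back lipolysis, rose by 2.42 ± 0.15 in HCT116 and 1.65 ± 0.15 in RCC4vhl+, and passed with 8 pairs in HCT116 (adjusted p = 0.0235) and not in RCC4vhl+ (0.123). TMEM158 rose by 2.36 and 1.81 and passed the 8-pair test in both lines. UFSP2, a protease for the UFM1 modifier, changed by 3.72 in HCT116 and 2.03 in RCC4vhl+ and is uncertain: its gene overlaps the known HIF target ANKRD37 by 1187 bases, and its other, dimmer probe set changed by -0.26 in HCT116 and 0.02 in RCC4vhl+.

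**Figure D2:**
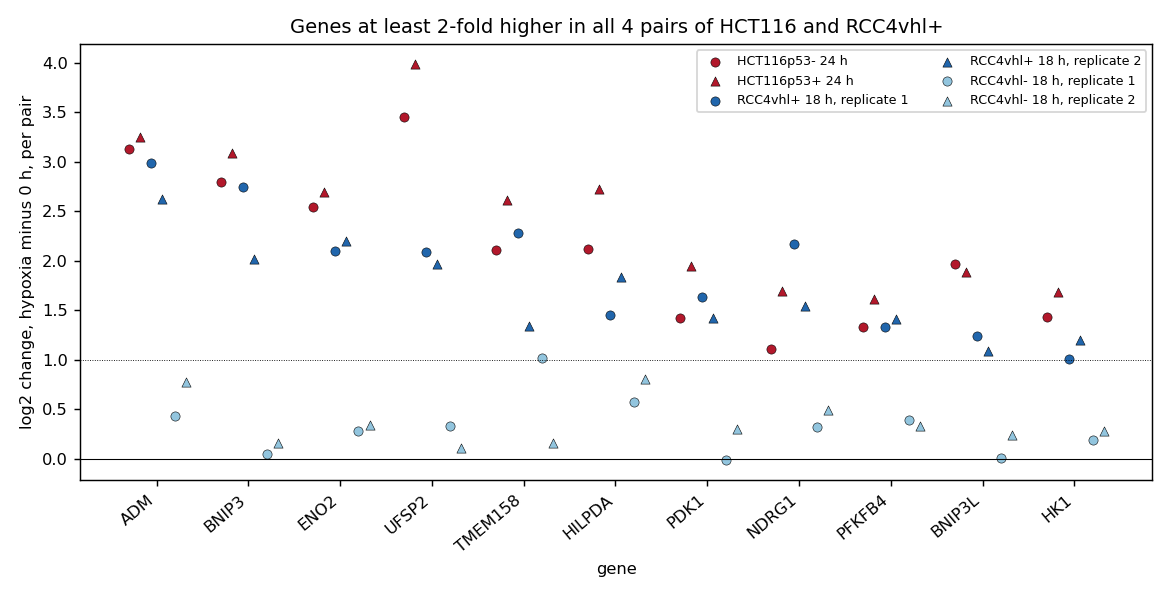
Log2 change per pair (vertical axis) for the 11 genes at least 2-fold higher in all 4 pairs, with HCT116 in red, RCC4vhl+ in dark blue and RCC4vhl- in light blue; the dotted line marks a 2-fold change. The HCT116 and RCC4vhl+ points all lie above the dotted line, while among the RCC4vhl- points TMEM158 in replicate 1 reaches 1.02.

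HIF binds DNA at a short core, ACGTG or GCGTG, and the start-site regions of genes from both kinds of response are shown here to place that core in actual sequence. The windows run from 250 bases before to 50 after the start (RefSeq, GRCh38.p14, each in the direction of its gene), and capitals mark either core on either strand (CACGT and CACGC are the complements read on this strand). BNIP3 and ENO2 stand for genes higher in both lines, PLOD2 for a gene with a far larger change in HCT116, and PPP1R3C and EDN1 for genes higher in RCC4vhl+. Their positions are chr10:131981874-131982173 on the minus strand, chr12:6914330-6914629 on the plus strand, chr3:146161135-146161434 on the minus strand, chr10:91633022-91633321 on the minus strand and chr6:12287769-12288068 on the plus strand.
BNIP3: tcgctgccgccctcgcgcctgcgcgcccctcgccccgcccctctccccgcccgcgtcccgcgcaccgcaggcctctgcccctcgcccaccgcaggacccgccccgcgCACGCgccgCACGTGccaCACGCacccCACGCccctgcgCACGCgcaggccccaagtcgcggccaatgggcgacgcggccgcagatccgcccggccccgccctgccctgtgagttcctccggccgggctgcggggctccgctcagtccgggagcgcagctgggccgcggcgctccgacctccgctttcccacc
ENO2: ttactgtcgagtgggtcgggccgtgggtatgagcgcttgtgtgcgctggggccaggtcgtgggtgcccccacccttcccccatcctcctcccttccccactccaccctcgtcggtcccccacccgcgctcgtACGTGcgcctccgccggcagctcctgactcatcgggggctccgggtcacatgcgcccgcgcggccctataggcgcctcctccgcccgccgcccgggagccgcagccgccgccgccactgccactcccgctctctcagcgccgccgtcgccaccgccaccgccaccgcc
PLOD2: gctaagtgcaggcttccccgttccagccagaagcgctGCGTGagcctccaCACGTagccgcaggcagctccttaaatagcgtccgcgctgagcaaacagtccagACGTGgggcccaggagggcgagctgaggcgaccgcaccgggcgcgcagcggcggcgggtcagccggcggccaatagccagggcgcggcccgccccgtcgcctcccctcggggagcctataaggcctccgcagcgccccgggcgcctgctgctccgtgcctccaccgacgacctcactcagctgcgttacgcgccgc
PPP1R3C: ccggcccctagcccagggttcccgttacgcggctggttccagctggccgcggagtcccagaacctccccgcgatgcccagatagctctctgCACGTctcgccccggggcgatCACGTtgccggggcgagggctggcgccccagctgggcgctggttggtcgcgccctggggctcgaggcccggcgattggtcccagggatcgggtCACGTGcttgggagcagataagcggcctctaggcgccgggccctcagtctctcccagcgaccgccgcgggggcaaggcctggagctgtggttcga
EDN1: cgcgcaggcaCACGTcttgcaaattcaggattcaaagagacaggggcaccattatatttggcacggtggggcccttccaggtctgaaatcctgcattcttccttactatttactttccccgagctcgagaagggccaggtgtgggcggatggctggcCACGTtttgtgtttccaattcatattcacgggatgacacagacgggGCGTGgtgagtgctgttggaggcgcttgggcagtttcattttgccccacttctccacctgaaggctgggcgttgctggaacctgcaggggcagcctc
The core was present in all 5 of these chosen windows. The windows of NRN1, PDK1 and HK1 held neither core. BNIP3 carried 6 matches between 143 and 104 bases before the start, including a palindrome CACGTG that counts on both strands, and PPP1R3C carried 4, including another palindrome close to its start. Either core occurred in 48.4% of 27305 promoter windows and in 61.0% of the 6159 windows of genes tested. It occurred in 44 of 56 windows of genes that rose in both lines (78.6%) and in 24 of 29 windows of genes that fell in both (82.8%), so the share was no lower among genes that fell. A match of 5 letters is a description of the window and no evidence of binding.

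Beyond the 2-fold set, smaller shared increases passed the tests. With 8 pairs, 10 genes passed in both lines in the same direction, all of them upward: ADM, TMEM158, MSANTD3, PLIN2, SCD, SERTAD2, CSRNP1, ALDOC, QSOX1 and GPRC5A. With 6 pairs, 98 genes did, 65 up and 33 down, and with the 4 pairs alone 23 did, 21 up and 2 down. Without RCC4vhl+ replicate 1 or replicate 2 none passed in both lines with 8 pairs, and with 6 pairs 47 and 89 did. The 65 genes that rose had a median change of 0.86 in HCT116 and 0.70 in RCC4vhl+, and the change was larger in HCT116 for 42 and in RCC4vhl+ for 23. In H1299p53-, which did not choose these genes, 53 of the 65 changed upward, against 56.2% of all genes tested. PLIN2, a lipid droplet coat protein, rose by 1.12 ± 0.13 in HCT116 and 1.17 ± 0.13 in RCC4vhl+, and SCD, which makes monounsaturated fatty acids, by 0.92 ± 0.10 and 1.17 ± 0.10. For PLIN2 the 95% interval of the difference was -0.46 to 0.36.

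Decreases were shared less firmly, and none passed the 8-pair test in both lines. Among the 33 that fell with 6 pairs, KPNA2, a nuclear import receptor, changed by -1.15 ± 0.15 in HCT116 and by -1.24 ± 0.15 in RCC4vhl+. It read 282 at 24 h and 512 at 0 h in HCT116p53-, 170 and 507 in HCT116p53+, 174 at 18 h and 530 at 0 h in RCC4vhl+ replicate 1, and 385 and 819 in replicate 2. PLK1, a mitotic kinase, changed by -1.42 ± 0.13 in HCT116 and -0.96 ± 0.13 in RCC4vhl+. DBF4, the activator of the kinase that fires replication origins, changed by -1.76 ± 0.21 and -1.12 ± 0.21. In AMD1, which makes the precursor of polyamines, the changes were -0.85 and -1.13.

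Some genes rose in both lines but more in HCT116. With 6 pairs the difference passed for 9 of the 65 shared increases, each larger in HCT116, and for 1 of the 33 shared decreases, also larger there. It passed for 3.66% of all genes tested. PLOD2, a lysyl hydroxylase of collagen, was listed at 296 (24 h) and null (0 h) in HCT116p53-, at 447 and 11 in HCT116p53+, at 492 (18 h) and 320 (0 h) in RCC4vhl+ replicate 1, and at 1078 and 768 in replicate 2. HCT116 thus started near or below the lowest listed intensities, and RCC4vhl+ started high. PLOD2 rose by 4.20 ± 0.10 in HCT116 and by 0.59 ± 0.10 in RCC4vhl+, and the difference of 3.62 had an adjusted p of 4.32e-06 with 6 pairs and 0.271 with 8. In the 8-pair fit the HCT116 change passed (adjusted p = 0.0428), and it did not pass in that fit when any 1 of the 4 pairs was left out. The HCT116 value was 5.58 with a pseudocount of 4 and 2.64 with 64.

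P4HA1, a prolyl hydroxylase of collagen, started from measurable levels in both lines. It read 719 at 24 h and 115 at 0 h in HCT116p53-, 715 and 150 in HCT116p53+, 438 at 18 h and 244 at 0 h in RCC4vhl+ replicate 1, and 663 and 455 in replicate 2. It rose by 2.32 ± 0.10 in HCT116 and 0.71 ± 0.10 in RCC4vhl+, and the difference of 1.61 passed with 6 pairs (adjusted p = 0.000753) and with 4 (0.0494), not with 8 (0.618). Other enzymes of collagen did not share this order. LOXL2, a lysyl oxidase relative, changed by 0.90 in HCT116 and 0.71 in RCC4vhl+ (adjusted p of the difference 0.699 with 6 pairs). P4HA2, a prolyl hydroxylase too dim to test, was at -0.12 and 0.08 in the HCT116 pairs and at 1.39 and 1.83 in the RCC4vhl+ pairs, and LOX, lysyl oxidase, also too dim to test, was null on every HCT116 array and at 3.66 and 2.11 in the RCC4vhl+ pairs. ALDOC, the brain form of aldolase, had the one shared increase whose difference passed with 8 pairs: 1.55 ± 0.09 in HCT116 and 0.70 ± 0.09 in RCC4vhl+, a difference of 0.84 with an adjusted p of 0.0446. Its 4 hypoxic intensities were 1082 and 1151 in HCT116p53- and HCT116p53+, and 693 and 693 in RCC4vhl+ replicates 1 and 2, against 373, 375, 407 and 463 on the matching 0 h arrays. MSANTD3, a gene of little-known function, rose by 2.52 and 1.21, and its difference of 1.31 passed with 6 pairs (adjusted p = 0.00834). It has a null entry in HCT116, so the size of its difference rests on the pseudocount. Its changes in HCT116 and RCC4vhl+ were 4.06 and 1.36 with a pseudocount of 4, and 1.18 and 0.87 with 64.

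Genes that changed in HCT116 and not detectably in RCC4vhl+ numbered 9 with 8 pairs, counting only those whose difference between lines also passed, 3 up and 6 down. With 6 pairs there were 179, 71 up and 108 down, and with the 4 pairs alone 10. Over both lines together these unshared changes were 17 with 8 pairs, and 58 without HCT116p53+, 3 without RCC4vhl+ replicate 1 and 1 without replicate 2. A further 218 genes (8 pairs) or 666 (6 pairs) passed in HCT116 without a called difference, and are undecided between shared and unshared. By size, 14 genes were 2-fold higher in both HCT116 pairs and below 0.5 in both RCC4vhl+ pairs (0.184%), and 15 were 2-fold lower in HCT116 and above -0.5 in RCC4vhl+ (0.197%). All 14 and all 15 were listed on all 4 RCC4vhl+ arrays, as were all 7614 genes tested. The RCC4vhl+ values are thus measurements, which is no trait of these sets. On all 4 HCT116 arrays 11 of the 14 and 12 of the 15 were listed, against 7568 of the 7614 genes tested. The HCT116 changes of the remaining genes rest on the pseudocount.

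The 3 increases that passed with 8 pairs were TMX1, SHROOM3 and TBC1D4. TMX1, a membrane-bound thioredoxin of the ER, was listed at 47 (24 h) and null (0 h) in HCT116p53-, 64 and 17 in HCT116p53+, 108 (18 h) and 116 (0 h) in RCC4vhl+ replicate 1, and 209 and 226 in replicate 2. HCT116 was thus below RCC4vhl+ at both times. Its change was 1.64 ± 0.14 in HCT116 and -0.05 ± 0.14 in RCC4vhl+ (difference 1.69, adjusted p = 0.0383 with 8 pairs). The HCT116 value was 2.69 with a pseudocount of 4 and 0.73 with 64. TBC1D4, a regulator of glucose transporter traffic, read 168 at 24 h and 52 at 0 h in HCT116p53-, 136 and 35 in HCT116p53+, 173 at 18 h and 218 at 0 h in RCC4vhl+ replicate 1, and 354 and 306 in replicate 2, a difference of 1.52 (adjusted p = 0.0445). SHROOM3, which shapes epithelial cells, rose by 1.57 on the probe set used, while its other probe set changed by -0.45 in HCT116, so its increase is uncertain.

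Other increases in HCT116 had differences that passed with 6 pairs and not with 8. CRELD2, an ER protein of the unfolded protein response, read 376 at 24 h and 85 at 0 h in HCT116p53-, 503 and 98 in HCT116p53+, 70 at 18 h and 106 at 0 h in RCC4vhl+ replicate 1, and 246 and 157 in replicate 2. The RCC4vhl+ replicates moved in opposite directions. The change was 2.08 ± 0.22 in HCT116 and 0.09 ± 0.22 in RCC4vhl+ (difference 1.99, adjusted p = 0.00926 with 6 pairs, 0.569 with 8). PGAM1, a phosphoglycerate mutase of glycolysis, read 1432 and 608 in HCT116p53- at 24 h and 0 h and 1416 and 696 in HCT116p53+, against 1328 and 1264 in RCC4vhl+ replicate 1 at 18 h and 0 h and 2082 and 1900 in replicate 2. It rose by 1.12 ± 0.09 in HCT116, with 0.15 ± 0.09 in RCC4vhl+. RNF128, a ubiquitin ligase, rose by 1.37 ± 0.09 in HCT116 against -0.36 ± 0.09 in RCC4vhl+, and the difference of 1.74 passed with 6 and with 4 pairs (adjusted p = 0.000297 and 0.0252). It has a null entry in HCT116, where its change was 2.32 with a pseudocount of 4 and 0.61 with 64.

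The decreases particular to HCT116 by the 8-pair test of the difference were ZNF696, RBCK1, FAM13B, FZD6, ITGA3 and FGF19. FGF19, a growth factor of the bile acid axis, read 249 at 24 h and 446 at 0 h in HCT116p53-, 225 and 427 in HCT116p53+, 75 at 18 h and 69 at 0 h in RCC4vhl+ replicate 1, and 94 and 102 in replicate 2. It fell by 0.83 in HCT116, with 0.05 ± 0.09 in RCC4vhl+, where its intensity was low at both times. FZD6, a Wnt receptor, changed by -1.16 ± 0.09 in HCT116 and -0.09 ± 0.09 in RCC4vhl+. ITGA3, the alpha3 integrin subunit, changed by -0.47 ± 0.09 in HCT116 and 0.41 ± 0.09 in RCC4vhl+, and RBCK1, a component of the linear ubiquitin ligase, by -1.19 ± 0.12 and 0.52 ± 0.12. The other probe set of RBCK1 changed by only -0.25 in HCT116 and 0.17 in RCC4vhl+. In the 6-pair fit RBCK1, ITGA3 and ZNF696 passed in both lines with opposite signs. A pair of pyrimidine enzymes showed the same order with 6 pairs: UPP1, uridine phosphorylase, changed by -1.60 ± 0.11 in HCT116 and 0.34 ± 0.11 in RCC4vhl+, and NT5C3A, a pyrimidine nucleotidase, by -1.58 ± 0.13 and 0.31 ± 0.13.

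Genes that changed in RCC4vhl+ and not detectably in HCT116 numbered 8 with 8 pairs, 7 up and 1 down, 56 with 6 pairs (37 up and 19 down) and 4 with the 4 pairs alone. By size, 8 genes were 2-fold higher in both RCC4vhl+ pairs and below 0.5 in both HCT116 pairs (0.105%): AKAP12, ATF3, CDCP1, EDN1, NRN1, PPP1R3C, TNFAIP3 and TRIB3. Of these 8, 7 were listed on all 4 HCT116 arrays, and PPP1R3C was null on all 4. No gene was 2-fold lower in both RCC4vhl+ pairs.

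NRN1 and EDN1 had the clearest differences. NRN1, neuritin, a secreted neurite-promoting protein and known HIF target, read 31 at 24 h and 28 at 0 h in HCT116p53-, 34 and 30 in HCT116p53+, 197 at 18 h and 29 at 0 h in RCC4vhl+ replicate 1, and 183 and 35 in replicate 2. The hypoxic RCC4vhl+ arrays stood apart from the other arrays. Its change was 0.12 ± 0.10 in HCT116 and 2.15 ± 0.10 in RCC4vhl+ (difference -2.03, adjusted p = 0.00377 with 8 pairs and 0.000149 with 6). EDN1, the vasoconstrictor endothelin 1, read 143 and 143 in HCT116p53- at 24 h and 0 h and 135 and 136 in HCT116p53+, against 709 and 200 in RCC4vhl+ replicate 1 at 18 h and 0 h and 1236 and 351 in replicate 2. Its change was 0.01 ± 0.10 in HCT116 and 1.81 ± 0.10 in RCC4vhl+ (difference -1.80, adjusted p = 0.00914 with 8 pairs, with a 6-pair interval of -2.12 to -1.49). Both genes overlap noncoding RNA genes, and the strand of the probes is not given in the sources used here.

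PPP1R3C, which targets a phosphatase to glycogen, had the largest change among the genes that passed in RCC4vhl+ and not in HCT116. It was null on all 4 HCT116 arrays, and read 364 at 18 h and 50 at 0 h in RCC4vhl+ replicate 1 and 928 and 135 in replicate 2. The change in RCC4vhl+ was 2.63 ± 0.09 (adjusted p = 0.0252 with 8 pairs), and no change in HCT116 can be measured from null entries. The difference passed with 6 pairs (adjusted p = 2.47e-05) and not with 8 (0.0964). With HCT116 null throughout, that test restates the change in RCC4vhl+ and does not compare the lines. TNFAIP3, an inhibitor of NF-kB signalling, read 81 and 79 in HCT116p53- at 24 h and 0 h and 76 and 76 in HCT116p53+, against 340 and 125 in RCC4vhl+ replicate 1 at 18 h and 0 h and 1279 and 327 in replicate 2. It rose by 1.67 ± 0.20 in RCC4vhl+, with 0.03 ± 0.20 in HCT116. AKAP12, a scaffold for protein kinase A, changed by -0.10 ± 0.09 in HCT116 and 1.38 ± 0.09 in RCC4vhl+ (adjusted p of the difference 0.0331 with 8 pairs), and started higher in HCT116, at 973 and 1102 at 0 h against 228 and 512 in RCC4vhl+. Its other probe set changed by -1.07 and -0.46 in the HCT116 pairs and by 1.33 and 1.51 in the RCC4vhl+ pairs, so whether AKAP12 changed in HCT116 is uncertain. MUC1, a membrane mucin, changed by 0.03 ± 0.08 in HCT116 and 0.98 ± 0.08 in RCC4vhl+ (adjusted p of the difference 0.0428 with 8 pairs).

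The one decrease that passed with 8 pairs in RCC4vhl+ together with the difference was CUL3, the scaffold of a ubiquitin ligase family. It read 130 at 24 h and 108 at 0 h in HCT116p53-, 119 and 99 in HCT116p53+, 109 at 18 h and 187 at 0 h in RCC4vhl+ replicate 1, and 219 and 338 in replicate 2. The change was 0.24 ± 0.08 in HCT116 and -0.60 ± 0.08 in RCC4vhl+. With 6 pairs CLDN2, a tight junction protein, also qualified, with 0.11 ± 0.12 in HCT116 and -1.02 ± 0.12 in RCC4vhl+, as did HSPE1, the mitochondrial co-chaperonin, with 0.14 ± 0.09 and -0.96 ± 0.09.

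**Figure D3:**
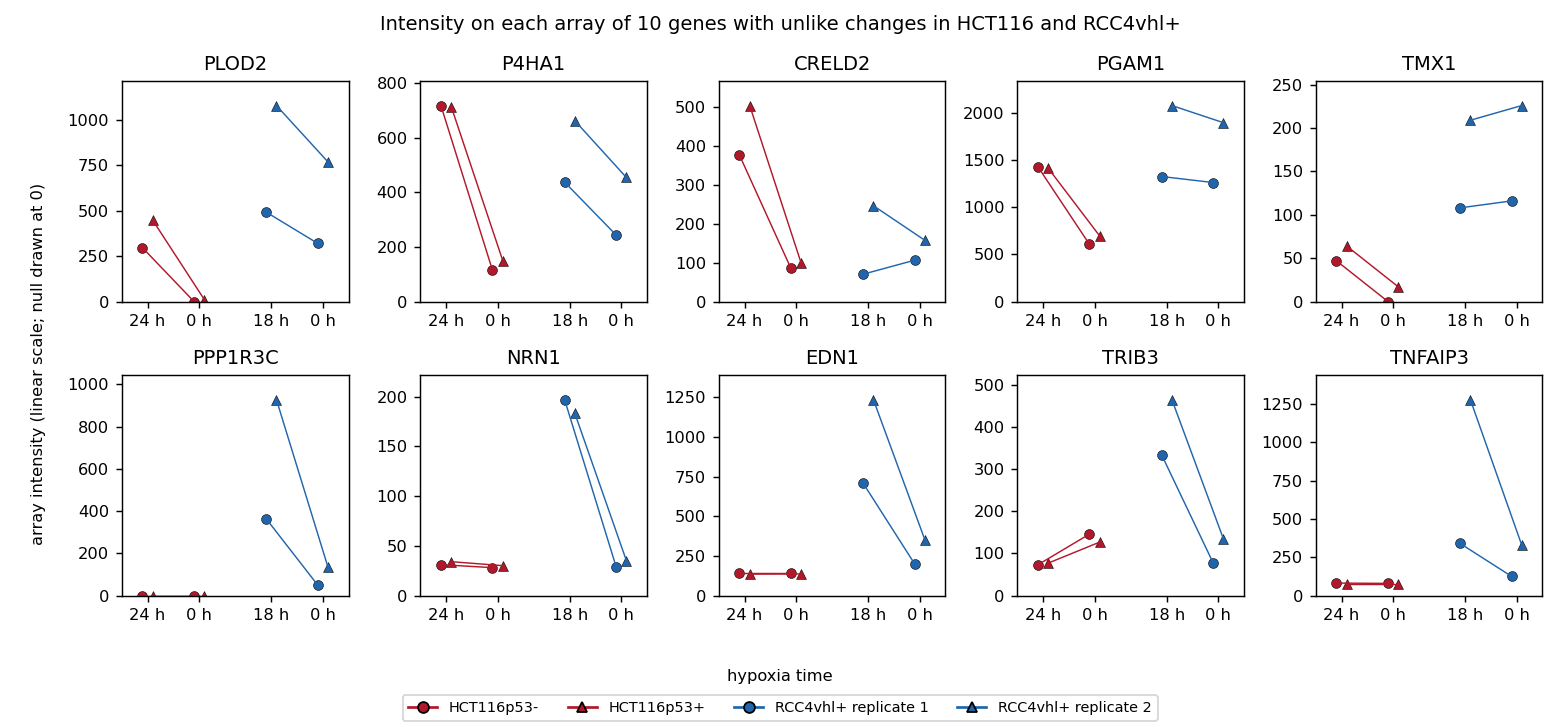
Array intensity (vertical axis, linear, null drawn at 0) of 10 genes in HCT116 (24 h and 0 h, red) and RCC4vhl+ (18 h and 0 h, blue), with a line joining the arrays of each pair. In the upper row P4HA1, CRELD2, PGAM1 and TMX1 slope more steeply in HCT116 than in RCC4vhl+. PLOD2 rises in both lines, from near 0 in HCT116 and from a far higher level in RCC4vhl+. In the lower row PPP1R3C, NRN1, EDN1 and TNFAIP3 stay flat or null in HCT116 and are higher at 18 h in RCC4vhl+. TRIB3 is lower at 24 h in HCT116.

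A small set went in opposite directions. With 8 pairs 2 genes passed in both lines with opposite signs, with 6 pairs 22 and with 4 pairs 3. CDCP1, a transmembrane substrate of Src kinases, read 160 at 24 h and 290 at 0 h in HCT116p53-, 195 and 306 in HCT116p53+, 115 at 18 h and 50 at 0 h in RCC4vhl+ replicate 1, and 366 and 133 in replicate 2. It changed by -0.69 ± 0.11 in HCT116 and 1.22 ± 0.11 in RCC4vhl+ (adjusted p of the difference 0.00862 with 8 pairs). TSC22D3, a glucocorticoid-induced leucine zipper gene, changed by -0.75 ± 0.12 in HCT116 and 1.04 ± 0.12 in RCC4vhl+, but its other probe set was at 0.25 and 0.16. TRIB3, a pseudokinase induced by ATF4, read 73 at 24 h and 146 at 0 h in HCT116p53-, 77 and 127 in HCT116p53+, 335 at 18 h and 78 at 0 h in RCC4vhl+ replicate 1, and 466 and 135 in replicate 2. It fell by 0.73 in HCT116 and rose by 1.83 in RCC4vhl+ (difference -2.57 ± 0.15, adjusted p = 6.11e-05 with 6 pairs and 0.381 with 8). DNAJA1, a cytosolic co-chaperone, ran the other way, with 0.80 ± 0.10 in HCT116 and -0.76 ± 0.10 in RCC4vhl+ (adjusted p of the difference 0.000573 with 6 pairs and 0.0855 with 8). At 12 h DNAJA1 was at 0 in HCT116p53- and -0.09 in HCT116p53+, so its increase was seen at 24 h alone.

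Read by gene list, HIF targets rose in both lines, though not all of the same ones. Among 30 tested HIF targets outside glycolysis, the median change was 0.57 in HCT116 and 0.85 in RCC4vhl+, beside 0.03 and 0.05 for all genes tested. With 8 pairs 5 rose in HCT116 and 7 in RCC4vhl+, against 1.47% and 0.46% of all genes tested. With 6 pairs 16 of 30 rose in HCT116 and 19 of 30 in RCC4vhl+, against 5.66% and 2.69% of all genes tested, with none falling (9 of the 47 listed genes that were measured were too dim to test). The difference passed with 6 pairs for 7 of the 30, against 3.66% of all genes tested. PLOD2, P4HA1, BNIP3L and the glucose transporter SLC2A3 (0.85 and 0.08) were higher in HCT116, and EDN1, NRN1 and PPP1R3C in RCC4vhl+. PPP1R3C was null on every HCT116 array, so its difference does not compare the lines. TGFA, an EGF receptor ligand, rose by 1.83 in RCC4vhl+, with 0.63 in HCT116, and CA12, a carbonic anhydrase, changed by 0.81 in HCT116 and 1.59 in RCC4vhl+. Neither difference passed.

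Glycolytic genes rose in both lines. Of 17 tested genes, 14 rose in HCT116 and 10 in RCC4vhl+ with 6 pairs, and 4 and 1 with 8 pairs. Of all genes tested, 5.66% rose in HCT116 and 2.69% in RCC4vhl+ with 6 pairs, and 1.47% and 0.46% with 8. The medians were 0.94 in HCT116 and 0.49 in RCC4vhl+. The difference passed with 6 pairs for 4, all higher in HCT116: ALDOC, PGAM1, SLC2A3 and GPI (glucose phosphate isomerase, 1.31 and 0.43). Of all genes tested, 1.47% had such a difference above 0 and 2.19% below 0. LDHA, which makes lactate, rose by 1.02 in HCT116 and 0.46 in RCC4vhl+, and PGK1, phosphoglycerate kinase, by 0.94 and 0.42. Neither passed with 8 pairs in either line (adjusted p of 0.0737 and 0.0830 in HCT116 and 0.556 and 0.576 in RCC4vhl+). GYS1, glycogen synthase, ran the other way at 0.61 in HCT116 and 1.32 in RCC4vhl+, without a called difference (adjusted p = 0.136 with 6 pairs).

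ER chaperone genes rose in HCT116 in larger number than in RCC4vhl+, but the RCC4vhl+ replicates were unlike each other. Of 13 ER chaperone genes, 9 rose in HCT116 and 3 in RCC4vhl+ with 6 pairs, against 5.66% and 2.69% of all genes tested, and none passed with 8 pairs, where 1606 of all genes had an unadjusted p under 0.05 in HCT116 and 922 in RCC4vhl+. The medians were 0.77 in HCT116 and 0.23 in RCC4vhl+. By pair they were 0.70 in HCT116p53- and 0.62 in HCT116p53+, against 0.09 in RCC4vhl+ replicate 1 and 0.63 in replicate 2, so replicate 2 was level with HCT116. With 6 pairs CRELD2, DNAJB11 (0.88 and -0.12), PDIA6 (0.94 and 0.23) and CALR (0.60 and 0.03) had called differences above 0, against 1.47% of all genes tested. XBP1, a transcription factor of the unfolded protein response, had one below 0 (-0.23 and 0.60), against 2.19%. HSPA5, the main ER chaperone, changed by 0.33 in HCT116 and 0.56 in RCC4vhl+, and HERPUD1 by 0.89 and 0.97. The 2 H1299 pairs, which ran opposite to each other on this list, had medians of 1.13 (H1299p53-) and -1.07 (labelled H1299p53+).

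Of 15 ATF4 stress genes, 2 rose and 4 fell in HCT116 with 6 pairs, and 7 rose in RCC4vhl+ (of all genes tested, 5.66% rose and 7.01% fell in HCT116, and 2.69% rose in RCC4vhl+), with medians of -0.08 and 0.40. None passed with 8 pairs. The difference passed for 7 of them with 6 pairs, in each case below 0 (2.19% of all genes tested): TRIB3, ATF3, SLC7A5, SESN2, ASNS, PSAT1 and CEBPB. ATF3, a stress transcription factor, read 268 at 24 h and 240 at 0 h in HCT116p53-, 277 and 351 in HCT116p53+, 234 at 18 h and 66 at 0 h in RCC4vhl+ replicate 1, and 548 and 190 in replicate 2. As intensities, its 0 h levels in HCT116 lay between the 2 hypoxic values of RCC4vhl+. ASNS, asparagine synthetase, changed by -0.56 in HCT116 and 0.45 in RCC4vhl+, and SLC7A5, a transporter of large neutral amino acids, by -0.51 and 0.68. DDIT4, an inhibitor of mTORC1, rose in both lines with 6 pairs, by 0.52 and 1.31, and in neither with 8 (adjusted p = 0.373 in HCT116 and 0.125 in RCC4vhl+).

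The neighbouring list of amino acid supply and tRNA synthetases, which shares genes with the ATF4 list, followed the same order. Of 20 tested genes, 10 fell in HCT116 and 3 rose in RCC4vhl+ with 6 pairs (7.01% and 2.69% of all genes tested), with medians of -0.34 and 0.08. The difference passed for 7, all below 0, against 2.19% of all genes tested. MARS1, methionyl-tRNA synthetase, changed by -0.79 in HCT116 and -0.16 in RCC4vhl+. SHMT2 and MTHFD2, enzymes of mitochondrial one-carbon metabolism, changed by -0.07 and -0.13 in HCT116 and by 0.49 and 0.47 in RCC4vhl+. None of the 20 passed with 8 pairs.

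Some cytosolic and mitochondrial heat shock genes fell in RCC4vhl+, and members moved both ways in HCT116. With 6 pairs, 5 of 13 fell in RCC4vhl+ (DNAJA1, HSP90AA1, HSPA4, HSPE1 and HSPH1), while in HCT116 2 rose and 3 fell (1.42% of all genes fell in RCC4vhl+, and 5.66% rose and 7.01% fell in HCT116). The medians were 0.14 in HCT116 and -0.26 in RCC4vhl+. HSPH1, a nucleotide exchange factor for HSP70, changed by -0.13 in HCT116 and -1.07 in RCC4vhl+, and HSPA9, the mitochondrial HSP70, by -1.46 and -0.16. With 8 pairs the one call was HSP90AB1, which rose by 0.38 in HCT116.

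Mitotic genes were lower in hypoxia in both lines, as counted over 14 G2/M genes. All 14 mean changes were below 0 in both lines, with medians of -0.79 in HCT116 and -0.51 in RCC4vhl+. The pairs overlapped, with medians of -0.51 in HCT116p53- and -1.01 in HCT116p53+, against -0.75 in RCC4vhl+ replicate 1 and -0.30 in replicate 2. With 6 pairs 12 fell in HCT116 and 4 in RCC4vhl+, against 7.01% and 1.42% of all genes tested, and with 8 pairs 1 fell in HCT116 (KIF2C, a microtubule-depolymerizing kinesin) and 0 in RCC4vhl+. CCNB1, cyclin B1, read 87 at 24 h and 315 at 0 h in HCT116p53-, 19 and 283 in HCT116p53+, 201 at 18 h and 414 at 0 h in RCC4vhl+ replicate 1, and 370 and 618 in replicate 2. Its change was -2.38 ± 0.24 in HCT116 and -0.80 ± 0.24 in RCC4vhl+, and the difference of -1.58 passed with 6 pairs (adjusted p = 0.0399) and not with 8 (0.516). The p53 wild-type pair changed more (-3.06) than the p53 null pair (-1.69). Among 15 p53 targets none passed in HCT116 and 3 rose in RCC4vhl+ with 6 pairs. Of all genes tested, 5.66% rose and 7.01% fell in HCT116, and 2.69% rose in RCC4vhl+. The medians of the mean changes were 0.19 in HCT116 and 0.17 in RCC4vhl+. By pair they were -0.01 in HCT116p53- and 0.16 in HCT116p53+. The HCT116 test averages these 2 genotypes, so it is poorly placed to call a change found only with p53. DDB2, a DNA damage binding protein under p53 control, changed by -0.35 in HCT116p53- and 0.84 in HCT116p53+, against 1.24 and 1.19 in the RCC4vhl+ replicates.

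**Figure D4:**
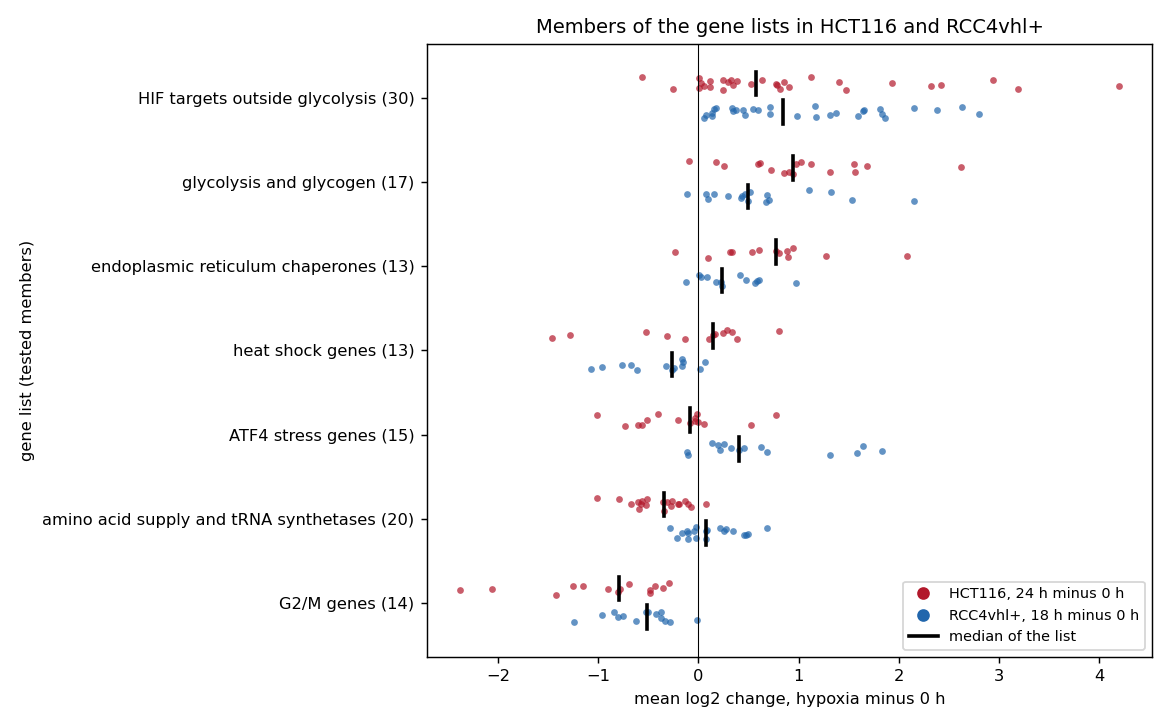
Mean log2 change (horizontal axis) of each tested member of 7 gene lists in HCT116 (red, 24 h minus 0 h) and RCC4vhl+ (blue, 18 h minus 0 h), with black bars at the list medians. The red median lies above the blue one for glycolysis, ER chaperones and heat shock genes and below it for the other 4 lists.

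The factors upstream of these genes were only partly measurable. HIF1A, the oxygen-controlled HIF subunit, read 253 at 24 h and 478 at 0 h in HCT116p53-, 201 and 433 in HCT116p53+, 653 at 18 h and 885 at 0 h in RCC4vhl+ replicate 1, and 1358 and 1504 in replicate 2. Its transcript fell in HCT116 (-0.95 ± 0.10, adjusted p = 0.000426 with 6 pairs and 0.0514 with 8), with -0.24 ± 0.10 in RCC4vhl+, and HCT116 lay below RCC4vhl+ at both times. EPAS1, which encodes HIF2 alpha, was null on all 8 arrays. VEGFA, the vascular growth factor and a standard HIF target, was too dim to test: it was listed at 13 (24 h) and 2 (0 h) in HCT116p53-, 4 and 19 in HCT116p53+, 49 (18 h) and null (0 h) in RCC4vhl+ replicate 1, and 41 and null in replicate 2. VHL was null on the HCT116 arrays and listed at 11 and 26 in RCC4vhl+ replicate 1 at 18 h and 0 h and 2 and 40 in replicate 2, which does not show the level of the reintroduced gene.

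In HCT116, most of the shared increases were already seen on the earlier arrays. At 12 h, 62 of the 65 shared increases were already above 0 in both HCT116 genotypes, against 40.6% of all genes tested, and their median was 0.69 (these 12 h changes share the 0 h arrays with the 24 h changes). ADM was at 3.27 and 3.13 at 12 h and 24 h in HCT116p53- and at 3.22 and 3.24 in HCT116p53+. PLOD2 was at 4.41 and 4.28 in HCT116p53- and at 4.05 and 4.13 in HCT116p53+. Those 2 genes were thus as high at 12 h as at 24 h, while P4HA1 was lower at 12 h (1.79 and 1.48) than at 24 h (2.48 and 2.17). TRIB3 was near 0 at 12 h, at -0.16 in HCT116p53- and 0.19 in HCT116p53+. The genotypes were further apart for UNG, a uracil DNA glycosylase, at 1.55 in HCT116p53- and 0.35 in HCT116p53+ at 12 h, from 1 array each.

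In RCC4vhl+ the order of the early times depended on the array set. The labels name no such set. It was inferred here from a few control rows, with blanks on every set 1 array and none on set 2 arrays. Against the 0 h array of the same set, the 65 shared increases had medians of 0.84 at 1 h, 0.16 at 2 h, 0.88 at 4 h and 0.31 at 6 h. All the early arrays are labelled replicate 1. Those at 1 h and 4 h fall in set 2, as does replicate 2 at 0 h and 18 h. Those at 2 h and 6 h fall in set 1, as does replicate 1 at 0 h and 18 h. The HCT116 arrays all fall in set 1. The 1 h value was beyond the 2 h value for 63 of the 65, so the levels did not follow time across sets, and the part of the array set or of the labels in this was not tested. Within set 1, ADM was at 2.49, 2.57 and 2.98 at 2 h, 6 h and 18 h, and NRN1 at 0.44, 1.06 and 2.28. After 18 h of hypoxia and 4 h back in oxygen, ADM stood at -0.78 against 0 h, EDN1 at 0.72 and UFSP2 at 0.81, while ENO2 stood at 2.56 and NRN1 at 2.58, from 1 array. No array of HCT116 after reoxygenation was used here.

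**Figure D5:**
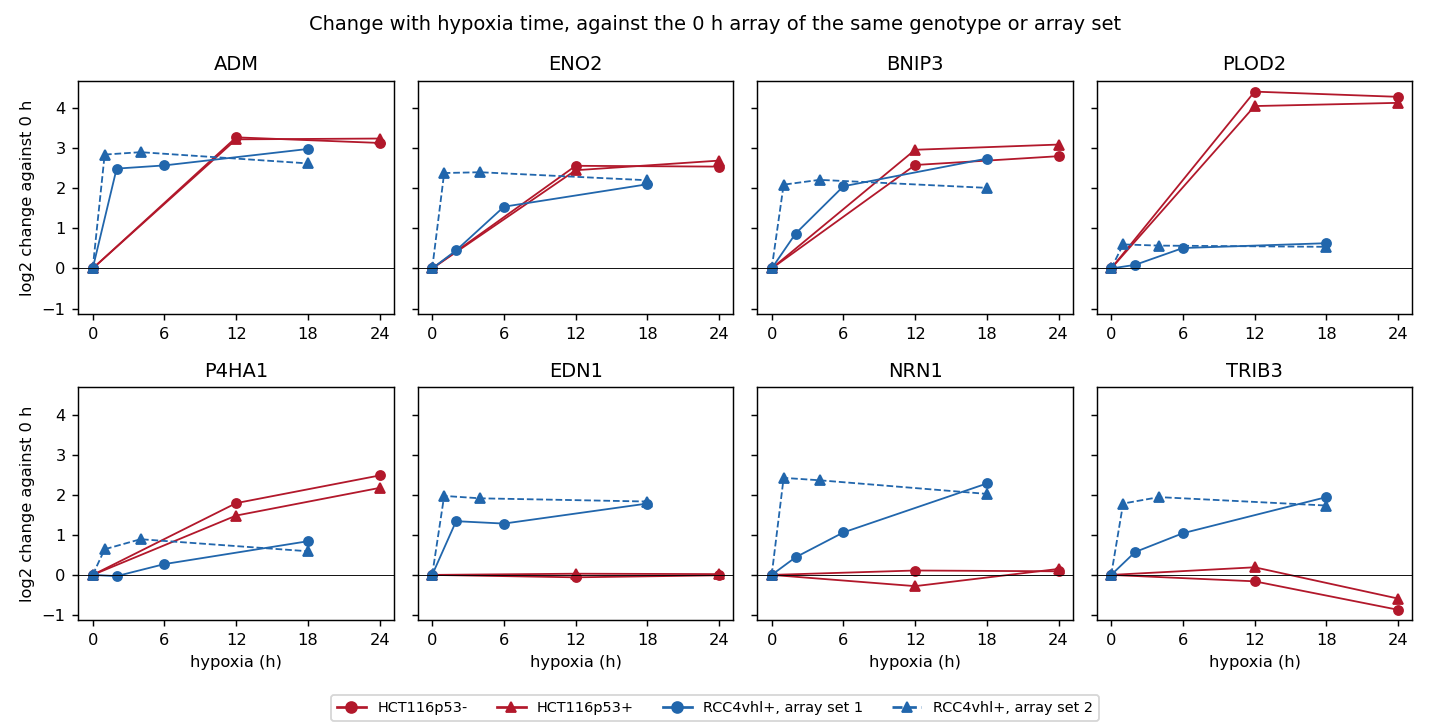
Log2 change against 0 h (vertical axis) by hours of hypoxia (horizontal axis) for 8 genes, with HCT116 in red (12 h and 24 h, by p53 genotype) and RCC4vhl+ in blue (solid for array set 1, dashed for set 2). ADM, ENO2 and BNIP3 reach similar late values in both lines, PLOD2 stays under 1 in RCC4vhl+, and EDN1 and NRN1 stay near 0 in HCT116.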

How the data were processed

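The authors deposited 1 value table with a column of linear intensity values per array from a custom Affymetrix GeneChip, per the labels, made with total RNA. The scaling and background steps and the meaning of null entries are not given in the sources used here, and array number, not depth, limits precision. Of 35409 probe sets, 16905 carried 1 gene symbol in the platform annotation and 16881 of these matched RefSeq by Entrez ID. The brightest probe set stood for each of 12690 genes. Null was taken as 0, 16 was added, log2 values were centred on each array's gene median, and the upper 60% of genes by mean over the 30 arrays (7614) were kept. limma 3.58.1 in R 4.3.3 fitted hypoxia changes with the pair as a block (lmFit, eBayes, Benjamini-Hochberg over all genes tested, two-sided, threshold 0.05), over 8 late pairs with 4 residual degrees of freedom. Fits over 6 pairs (3) and 4 pairs (2) were alternatives. A run of the fit on simulated data took its noise from the gap between the RCC4vhl+ replicates alone. It therefore cannot speak to the error of the HCT116 or H1299 pairs.

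Pairing came from the labels' genotypes and replicate numbers. The RCC4vhl+ replicates' differences at 18 h and 0 h correlated at r = 0.837 over 7614 genes, and at those times the replicate number also marks the inferred array set. A gene counted as changed in both lines if both contrasts passed and all 4 pairs had that sign, and as changed in 1 line if the other contrast did not pass and the difference did. Named genes were the 10 largest shared changes each way, the 8 largest changes in 1 line each way, up to 8 opposite ones, up to 4 shared ones each way with a called difference, up to 3 members per list, and a few fixed HIF, ATF4 and p53 genes. Other list members, the 2-fold sets and the few named with early times were chosen after their values were seen. The members and lists were chosen with earlier results of these data known. Alternatives changed the replicate block, pseudocount, filter, normalization, probe set rule, eBayes trend, HCT116 time and left-out pair. Figures were drawn with matplotlib 3.10.9 in Python 3.11.15.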

Additional observations from a re-analysis of the deposited data

Results flagged for a closer look

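For 20 genes the hypoxia change differed between HCT116 and RCC4vhl+ in the test of the difference itself (limma, 8 pairs, Benjamini-Hochberg). Those with the HCT116 change above the RCC4vhl+ change were SHROOM3 (difference 1.70, adjusted p = 0.0383), TMX1 (1.69, adjusted p = 0.0383), TBC1D4 (1.52, adjusted p = 0.0445), ALDOC (0.84, adjusted p = 0.0446) and CUL3 (0.84, adjusted p = 0.0440). Among genes with the HCT116 change below the RCC4vhl+ change, the differences were -2.03 for NRN1 (adjusted p = 0.00377), -1.91 for CDCP1 (0.00862), -1.80 for EDN1 (0.00914), -1.79 for TSC22D3 (0.0144), -1.78 for ZNF696 (0.00862) and -1.71 for RBCK1 (0.0383). They were -1.47 for AKAP12 (0.0331) and -1.41 for MRPL12 (0.0331), a mitochondrial ribosomal protein. Smaller ones were -1.10 for FAM13B (0.0447), -1.07 for FZD6 (0.0428), -0.99 for FABP6 (0.0447), a bile acid binding protein, and -0.95 for MUC1 (0.0428). The smallest were -0.91 for PHC2 (0.0383), a Polycomb protein, -0.89 for ITGA3 (0.0428) and -0.88 for FGF19 (0.0428). The other probe sets of MRPL12 and PHC2 were at -0.69 and -0.15 in HCT116 and at -0.65 and -0.18 in RCC4vhl+, unlike the probe sets used in RCC4vhl+ (1.04 and 0.64). SHROOM3, TMX1 and ZNF696 have null entries in HCT116, so the sizes of their differences rest on the pseudocount. With 4 added in place of 16, the HCT116 change was 3.13 for SHROOM3 and -2.09 for ZNF696. With 64 added it was 0.59 and -0.45. With the 4 pairs alone, 6 of the 20 passed.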

How the results depend on the processing

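The counts of genes moved with nearly every setting, and the cause was not tested. In order, the 5 counts are genes changed in HCT116, in RCC4vhl+, with a called difference, in both lines the same way, and in 1 line with a called difference, and they were 239, 39, 20, 10 and 17 with 8 pairs. Without the replicate block, that is without the pairing of hypoxia and 0 h arrays, they were 8, 4, 0, 1 and 0, and 956 genes had an unadjusted p under 0.05 for the difference in the paired fit. Without the H1299 pairs they were 965, 313, 279, 98 and 235. With the 4 pairs alone 23 genes changed in both lines. With a pseudocount of 64, 101 passed in RCC4vhl+ and 16 in both lines. With no filter on dim genes 57 passed in HCT116 and 94 in RCC4vhl+, the reverse of the main order. With quantile normalization 159, 64 and 10 passed in HCT116, RCC4vhl+ and the difference and 10 in 1 line, and with no centring 154 in HCT116, 6 for the difference, 6 in both lines and 4 in 1 line. With the mean of all probe sets of a gene 63 passed in RCC4vhl+. With HCT116 at 12 h in place of 24 h, 18 passed in HCT116, 11 for the difference, 5 in both lines and 10 in 1 line, and with the mean of 12 h and 24 h, 40, 10 for the difference and 8 in 1 line. Leaving out 1 pair gave 89 to 177, 1 to 42, 1 to 59, 0 to 10 and 1 to 58, with the lowest HCT116 count without HCT116p53-, the highest counts of the difference and of 1 line without HCT116p53+, and the lowest of the other counts without an RCC4vhl+ replicate. For the 6-pair counts of 965, 313, 279, 98 and 235, the fit without the replicate block gave 46, 13, 2, 6 and 2, and no filter gave 331, 149, 20, 34 and 18. No centring gave 189 in RCC4vhl+, 141 for the difference, 59 in both lines and 119 in 1 line, and HCT116 at 12 h gave 589 in HCT116. Leaving out 1 pair gave 1015 to 1183, 121 to 948, 197 to 983, 47 to 298 and 169 to 788, with the higher counts where an HCT116 pair was left out. Among named values past the 8-pair test, signs turned for TSC22D3 (0.12), CCN2 (-0.34) and PSMD12 (0 against a decrease) in HCT116 at 12 h and for PHLDA1 in HCT116 (-0.24) with the mean of its probe sets. Of the named genes' values, 301 kept their call and 167 gained one without H1299, and 383 kept and 85 lost it without the replicate block. Of values past the 6-pair test alone, those of UBE2C (0.11), NOLC1 (0.23), PSMD6 (0.01), TRIB3 (0.02) and DNAJA1 (-0.04) in HCT116 also turned sign at 12 h, as did the differences of PSMD12 (0.51, at 12 h) and PHLDA1 (-0.46, with the mean of its probe sets), and many values past neither test did so under some setting. No difference under the lowest listed intensities can be read where a gene is null.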

Other observations

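With 6 pairs, 5.66% of all genes tested rose and 7.01% fell in HCT116, and 2.69% rose and 1.42% fell in RCC4vhl+, which stand beside the following counts. Of 20 ribosome biogenesis genes, 7 fell and 1 rose in HCT116 and 4 fell in RCC4vhl+ with 6 pairs, with medians of -0.19 in HCT116 and -0.06 in RCC4vhl+. NIP7, needed for ribosome assembly, changed by -0.37 in HCT116 and -0.60 in RCC4vhl+. Of 16 splicing genes, 4 fell in HCT116 and 0 in RCC4vhl+. Of 15 genes of lipid and cholesterol synthesis, 3 rose in HCT116 and 1 in RCC4vhl+, and INSIG1, a brake on sterol synthesis, changed by 1.28 in HCT116 and 0.14 in RCC4vhl+. Of 21 oxidative phosphorylation genes, 3 rose in HCT116 and 0 in RCC4vhl+, with medians of 0.12 and -0.07. Of 11 NF-kB and inflammation genes, 0 rose in HCT116 and 3 in RCC4vhl+: TNFAIP3, ICAM1 (an adhesion molecule, 0.15 and 1.08) and NFKBIA (an NF-kB inhibitor, 0.28 and 0.38). Of 15 immediate early genes, 4 rose in HCT116 and 3 in RCC4vhl+.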
